A study of Homo sapiens with 9 samples.

Results

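NORAD is an abundant cytoplasmic long noncoding RNA, and 402 of the 2478204 merged peaks of the series lay on it. Members were taken as every merged peak that overlapped NORAD by at least 1 base on its strand, in any library. GENCODE release 44 places NORAD (ENSG00000260032.2, type lncRNA) on the minus strand of chromosome 20, at chr20:36045618-36051018 of GRCh38, as 1 exon of 5401 nt with no other gene overlapping it on either strand. Positions below are counted in nt from its 5′ end.

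The peaks come from antibody-barcode eCLIP (ABC), in which each antibody carries a DNA oligonucleotide that is joined on the beads to the RNA bound by its protein, so that the barcode in a read names the RNA-binding protein (RBP). In the 10plex sets, 10 barcoded antibodies were pooled and used together on lysate of UV-crosslinked cells, in 3 replicates of K562 cells, a human chronic myeloid leukaemia line, and in 2 replicates of HEK293T cells, a human embryonic kidney line. The RBPs were DDX3, EIF3G, FAM120A, IGF2BP2, LIN28B, PRPF8, PUM2, RBFOX2, SF3B4 and ZC3H11A, which gives 50 libraries, and all 10 RBPs of a replicate share 1 pool. Singleplex ABC, with 1 antibody at a time, was run in 2 replicates for RBFOX2 (HEK293T) and in 2 for SLBP (K562). No cells were treated or edited. The study's methods call the kidney line HEK293XT, and one characteristic of its 10plex samples reads K562. The titles, which read HEK293T, were used. Nothing in the labels says whether replicates came from separate cultures. The p-values come from exchanging RBP or line labels among these libraries. They do not measure the spread between replicates or cultures. RBP labels were exchanged in each replicate separately, which treats the libraries of 1 RBP in different pools as independent. With the RBP as the unit there would be only 10 choices, and the smallest possible p-values would be larger.

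PUM2 is a Pumilio protein, a family that binds the Pumilio response element (PRE), read as TGTANATA in DNA letters with N any base, through repeats that each read a base, and recruits deadenylases that lower the stability and translation of target mRNAs. NORAD carries many PREs in repeated units, binds Pumilio proteins, and is known for holding them away from mRNAs of mitosis, DNA repair and replication. Of the other RBPs, DDX3 is an RNA helicase and EIF3G a subunit of initiation factor eIF3, both of which act at the start of translation. IGF2BP2 and FAM120A bind mature mRNAs, LIN28B binds let-7 precursors and mRNAs, and ZC3H11A takes part in mRNA export. RBFOX2, SF3B4 and PRPF8 act in splicing, and NORAD has no intron.

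NORAD held 15 matches to TGTANATA on its strand, numbered PRE1 to PRE15 from the 5′ end. The base N was T in 10, A in 4 and C in 1. The following windows, from GRCh38 and written 5′ to 3′ on the NORAD strand with the PRE in capitals, are the 6 PREs at which the level of PUM2 passed the test in K562 cells.
PRE4, nt 1500 to 1507, chr20:36049504-36049527: cttatctgTGTATATAgtgtacat
PRE5, nt 1509 to 1516, chr20:36049495-36049518: gtatatagTGTACATAaaggacag
PRE9, nt 2697 to 2704, chr20:36048307-36048330: tgctatacTGTATATAttgtatat
PRE10, nt 2706 to 2713, chr20:36048298-36048321: gtatatatTGTATATAtaacggac
PRE11, nt 3030 to 3037, chr20:36047974-36047997: ccctactgTGTATATAgcggacaa
PRE13, nt 3342 to 3349, chr20:36047662-36047685: gtatatagTGTATATAagcggaca

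PRE4 and PRE5, PRE9 and PRE10, and PRE12 and PRE13 each lie side by side, so that 1 peak can cover both. For comparison, 7 PREs had no merged peak of any RBP in any 10plex library, and 4 of these read as follows.
PRE1, nt 819 to 826, chr20:36050185-36050208: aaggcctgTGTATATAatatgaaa
PRE2, nt 1198 to 1205, chr20:36049806-36049829: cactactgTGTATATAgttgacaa
PRE3, nt 1299 to 1306, chr20:36049705-36049728: tcacatttTGTAAATAcctttttg
PRE8, nt 2524 to 2531, chr20:36048480-36048503: taacacttTGTAAATAgcttttaa

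The 7 PREs without a peak were PRE1, PRE2, PRE3, PRE6, PRE7, PRE8 and PRE14. Of these, 4 read TGTATATA and 3 read TGTAAATA. The first form is also that of 5 of the 6 PREs printed above, so the 8 bases alone do not separate covered from uncovered PREs.

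PUM2 took more of its reads from NORAD than any other RBP of its pool in every replicate of both lines. The measure is the reads of NORAD peaks as a percent of the reads of all merged peaks of a library, in which peaks that touch are counted once, by the highest. In K562 cells it was 0.157% in replicate 1, 0.889% in replicate 2 and 0.552% in replicate 3, from 16, 134 and 71 reads. The other 9 RBPs ran from 0.00435% for PRPF8 to 0.167% for FAM120A, and averaged 0.0461% over 27 libraries. The mean of PUM2 was 0.533% ± 0.366 (SD, n = 3), 11.6 times that of the others (exact permutation of the RBP labels within replicates, one-sided, p = 0.001, the smallest that 1000 choices allow; adjusted p = 0.003 over 6 tests). Replicates 2 and 3 of PUM2 stood above all other libraries of the line, but replicate 1 lay below FAM120A of replicate 2. Without replicate 2 the mean of PUM2 was 0.355%, with p = 0.01 by exact permutation, the smallest that 100 choices allow. Within replicate 1 the Wilson 95% interval of PUM2, 0.0967% to 0.255%, held the 0.121% of FAM120A.

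In HEK293T cells the share of PUM2 was 0.226% in replicate 1 and 0.166% in replicate 2, from 43 and 67 reads, and the other RBPs lay between 0.00227% for ZC3H11A and 0.0344% for DDX3. The groups did not overlap. The mean of 0.196% ± 0.0423 (SD, n = 2) was 13.1 times the 0.0150% of the others (exact permutation, p = 0.01, the smallest that 100 choices allow; adjusted p = 0.015).

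**Figure D1:**
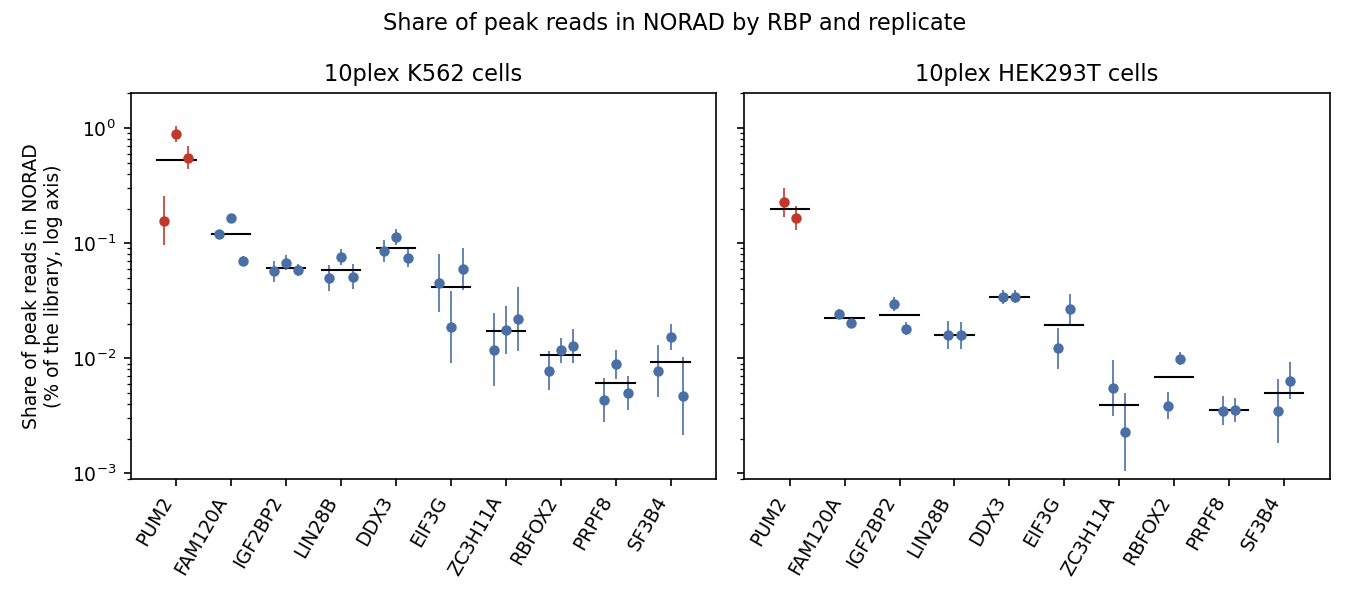
Share of the reads of merged peaks that lay in NORAD, in % on a log axis, for each RBP in 10plex K562 and HEK293T cells. Points are replicates with Wilson 95% intervals, which cover counting error only, and black lines are means; PUM2, in red, is highest in both lines, and 1 of its K562 replicates, at 0.157%, lies among the higher values of FAM120A.

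The PUM2 libraries were the smallest of their pools, with 10186 to 40252 peak reads against 24212 to 2743327 in the others and 0.865% to 1.03% of the reads of a pool. The share was therefore also set against the library's share of its pool, a choice made after seeing the data. By this measure PUM2 held 1.54, 4.30 and 6.55 times as many of the pool's NORAD peak reads as of all its reads in K562 replicates 1 to 3, a mean of 4.13 and 5.91 times the 0.699 of the others (exact permutation, p = 0.002). In replicate 1 FAM120A was higher, at 2.45. In HEK293T cells the values of PUM2 were 4.13 and 4.50 and the mean of the others was 0.971, a ratio of 4.44 (exact permutation, p = 0.01).

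PUM2 had the highest and PRPF8 the lowest mean share in both lines. In K562 cells PUM2 was followed by FAM120A with 0.119% ± 0.0482, DDX3 with 0.0913% ± 0.0204, IGF2BP2 with 0.0610% ± 0.00590 and LIN28B with 0.0587% ± 0.0145 (mean ± SD, n = 3). The ranges of FAM120A and DDX3 overlapped, as did those of IGF2BP2 and LIN28B. EIF3G, ZC3H11A, RBFOX2, SF3B4 and PRPF8 were lower, down to 0.00607% ± 0.00244 for PRPF8. In HEK293T cells DDX3 came second with 0.0342% ± 0.000248, and the other mRNA-binding proteins IGF2BP2, FAM120A, EIF3G and LIN28B lay between 0.0159% and 0.0238% (n = 2). The IGF2BP2 value may be too high. In replicate 1, 115 of its 223 NORAD reads were recovered at nt 2275 to 2306. Overlapping peaks counted 31 (PUM2), 106 (FAM120A) and 181 (LIN28B) reads of all other barcodes, and only the last exceeds 115. RBFOX2 of replicate 2 likewise had 130 of 237 reads at nt 4700 to 4770, where LIN28B counted 36 from all other barcodes. These reads enter the HEK293T means of the other RBPs and the values set against a pool.

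Set against other genes, a leading share for PUM2 was common, and its size on NORAD was near the top. Of 384 genes with an exonic PUM2 peak in every K562 replicate, 98, or 25.5%, had their highest share in PUM2 in every replicate, as NORAD did. In HEK293T cells these were 197 of 700 genes, or 28.1%. A highest share in every replicate gives the smallest p of the permutation, so that p alone does not set NORAD apart from these genes. The median gene had 2.12 times the share in PUM2 that it had in the other RBPs in K562 cells and 2.20 times in HEK293T cells. Only 8 of the 384 genes and 9 of the 700 had a ratio above that of NORAD. By its share of peak reads NORAD ranked 159th of 630 genes in PUM2 of K562 replicate 1, 13th of 953 in replicate 2, 34th of 839 in replicate 3, 62nd of 1044 in HEK293T replicate 1 and 72nd of 1599 in replicate 2.

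The share of PUM2 reads in NORAD was 2.71 times as high in K562 as in HEK293T cells by the means, but the lines overlapped, since K562 replicate 1, at 0.157%, lay below both HEK293T replicates. The difference of 0.336 percentage points did not pass (exact permutation of the line labels, two-sided, p = 0.4, where 10 choices allow no p below 0.1), and was 0.158 without K562 replicate 2. Against the pool's reads the means were 4.13 and 4.31, which reverses the direction (difference -0.18, exact permutation, p = 0.9). NORAD also held less of the peak reads of the other RBPs in HEK293T cells, and the amount of NORAD in each line was not measured here.

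PUM2 had 39 merged peaks on NORAD, 4, 11 and 9 in K562 replicates 1 to 3 and 7 and 8 in the HEK293T replicates. They were 20 to 149 nt long, with a median of 51 nt, and held 3 to 26 reads, with a median of 8. Joined where they overlapped, they formed 13 sites. Of these, 10 were present in at least 2 libraries, and 9 of the 10 lay between PRE1 and PRE14. This stretch, from nt 819 to 3658, makes up 52.6% of NORAD and held 100%, 94.8% and 90.1% of the NORAD peak reads of PUM2 in K562 replicates 1 to 3, and 74.4% and 88.1% in HEK293T cells. PUM2 had no peak before PRE1 in 2 of 3 K562 libraries, while the exception and both HEK293T libraries had 1 peak each between nt 102 and 206.

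**Figure D2:**
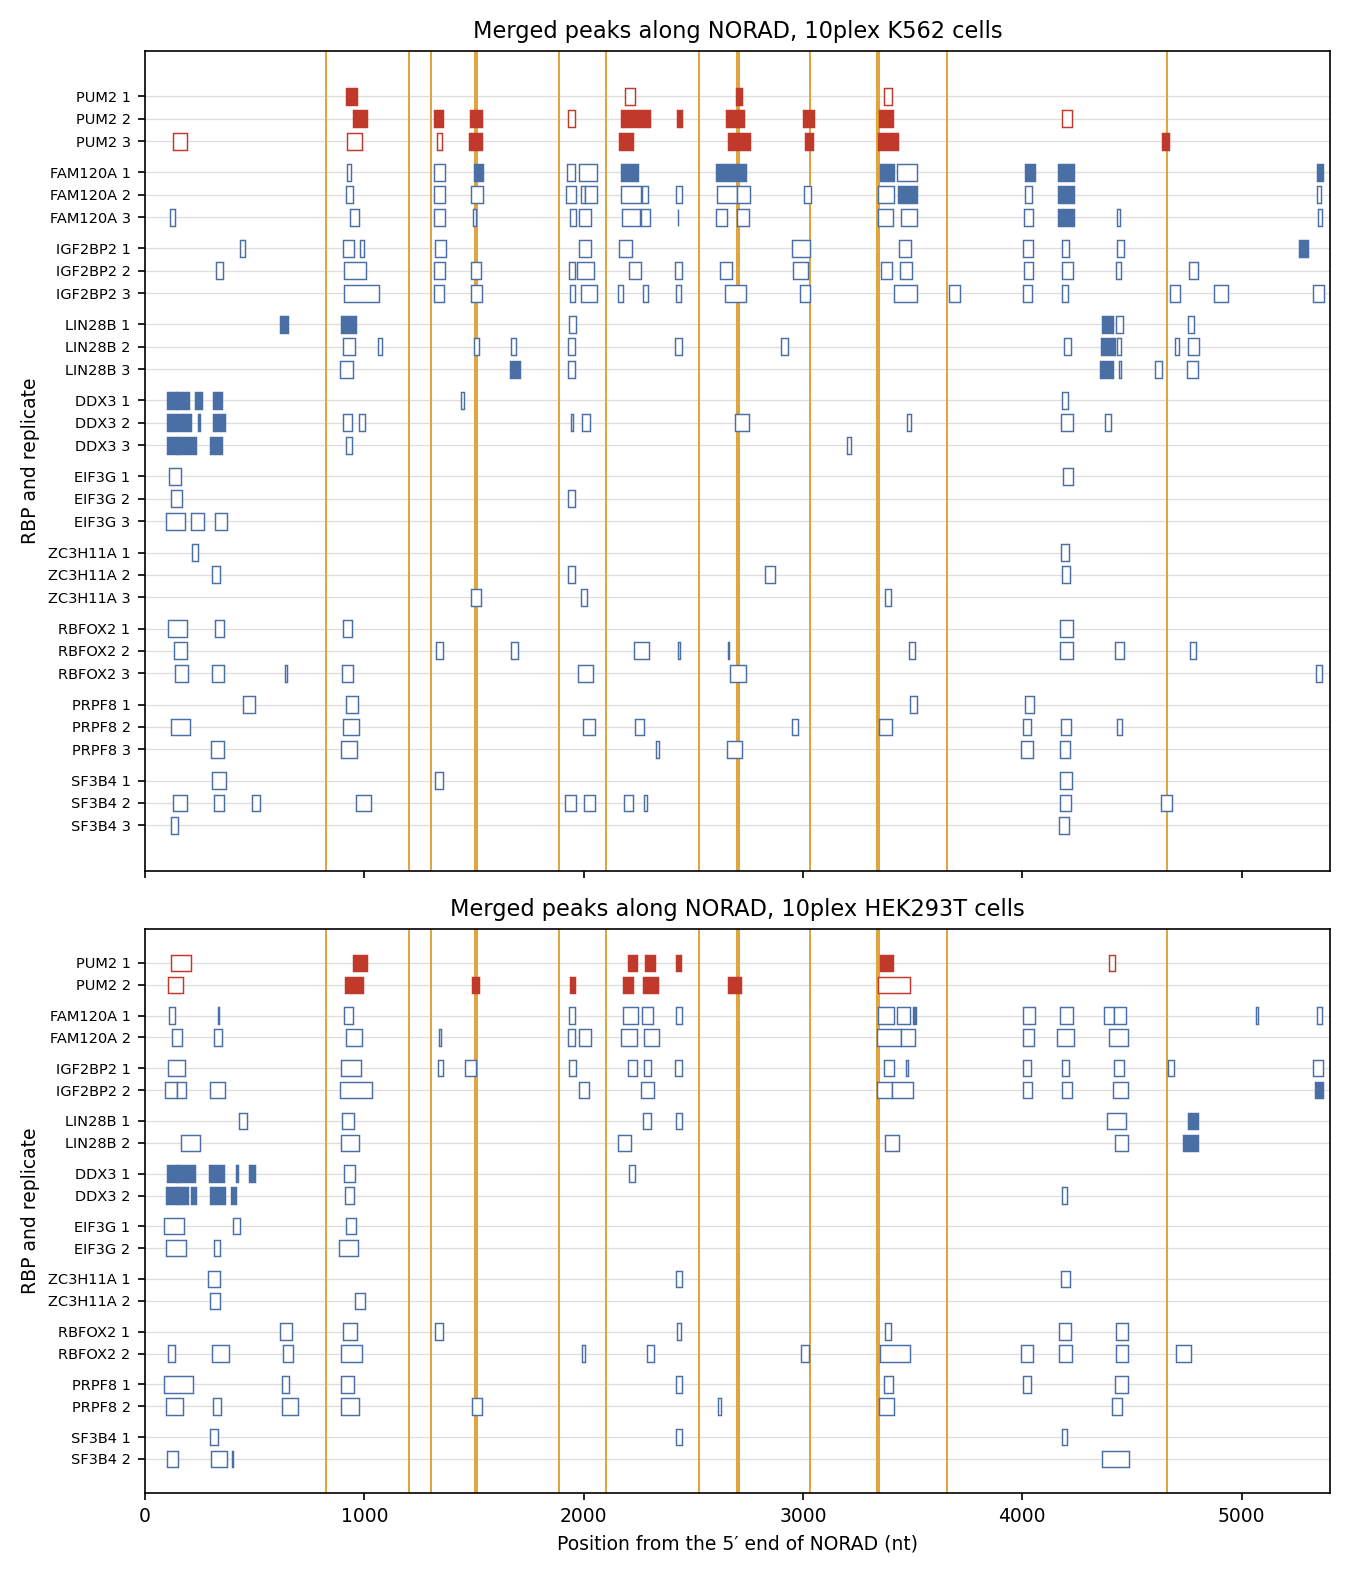
Merged peaks of the 10 RBPs along NORAD, by distance from its 5′ end in nt, with a row for each replicate. Filled boxes are peaks enriched over the complement control (reads with any different barcode of that pool), open boxes are peaks that were not or that have no such value, and vertical lines mark the 15 PREs; PUM2, in red, lies mostly between nt 912 and 3488, and DDX3 is enriched only between nt 95 and 502.

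PUM2 reads were concentrated on PREs in K562 cells. A peak was counted at a PRE where it overlapped a base of TGTANATA. Of the NORAD peak reads of PUM2, 18.8% were in runs of touching peaks with a PRE in replicate 1, 50.0% in replicate 2 and 64.8% in replicate 3, from 3 of 16, 67 of 134 and 46 of 71 reads. The mean of 44.5% ± 23.5 (SD, n = 3) was 6.11 times the 7.29% of the other RBPs (exact permutation, one-sided, p = 0.001, the smallest possible; adjusted p = 0.003). FAM120A was second with 16.7% ± 4.63, and the highest other library was ZC3H11A of replicate 3, with 3 of 9 reads. The PUM2 value of replicate 1 rests on 1 peak of 3 reads and lay below that value, FAM120A of replicate 2, IGF2BP2 of replicate 3 and RBFOX2 of replicate 3. Sliding peaks of the same lengths along NORAD would have placed 10.9%, 14.1% and 15.6% of them on a PRE, against 25.0%, 45.5% and 55.6% of the PUM2 peaks.

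In HEK293T cells the share was 0% in replicate 1, where none of 7 peaks overlapped a PRE, and 38.8% in replicate 2, where 3 of 8 did. The mean of 19.4% ± 27.4 (SD, n = 2) against 3.77% in the other RBPs did not pass (exact permutation, p = 0.1; adjusted p = 0.1). The 43 reads of replicate 1 with 0 at a PRE allow a share of up to 6.98%, or 3 reads, by counting error. With the PRE extended by 20 nt on both sides the mean was 29.9% against 5.63% (exact permutation, p = 0.01). Extended by 50 nt, it was 33.6% against 11.15% and did not pass (exact permutation, p = 0.07).

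**Figure D3:**
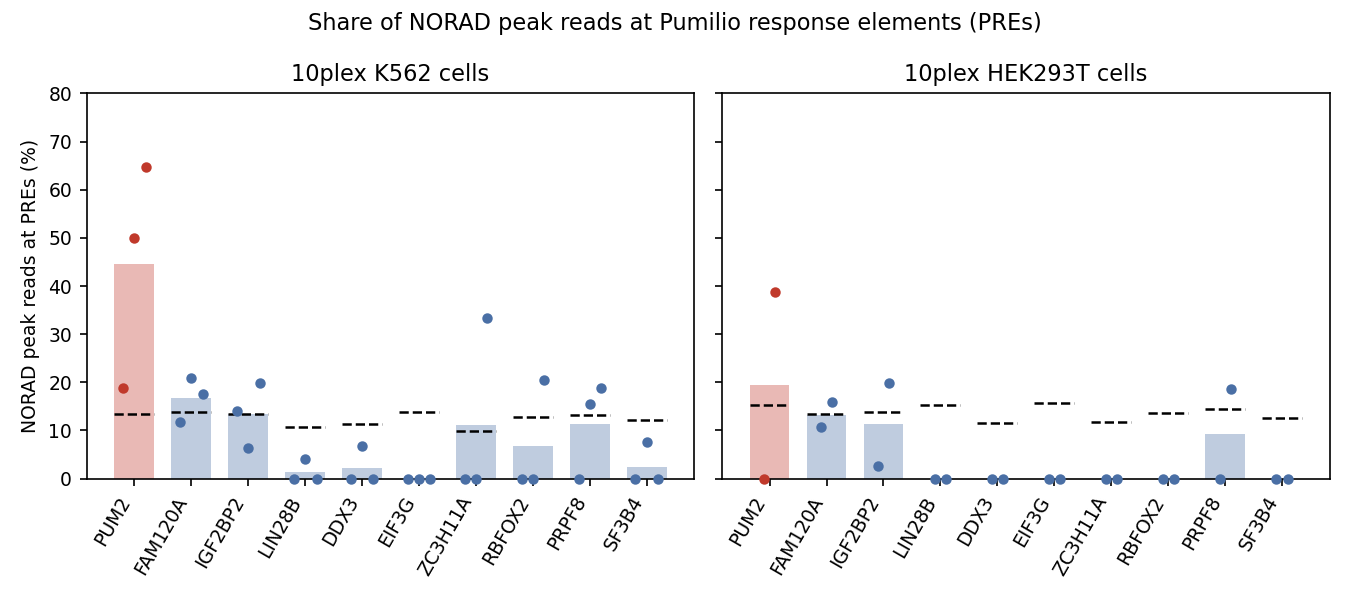
Share of the NORAD peak reads of each library, in %, that lay in runs of touching peaks with a PRE. Bars are means and points replicates, and dashed lines give the mean share of placements of peaks of the same lengths along NORAD that would overlap a PRE; PUM2 is the highest RBP in K562 cells, and its HEK293T replicates are at 0% and 38.8%.

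Over both lines 14 of 39 PUM2 peaks were at a PRE, 11 of 24 in K562 and 3 of 15 in HEK293T cells. Among all merged peaks of PUM2, 6.79% overlapped TGTANATA in K562 and 3.79% in HEK293T cells. In single PUM2 libraries this was 3.10% to 8.34%, and in the other 45 10plex libraries 0.0799% to 1.18%, so the element marked the PUM2 libraries in all 5 pools. Peaks of the other RBPs on NORAD overlapped a PRE in 9 of 46 for FAM120A, 5 of 45 for IGF2BP2 and 1 of 22 for DDX3 in K562 cells. Each remaining RBP had 0 to 2 such peaks there. By library these were 16.7% to 23.5% of FAM120A peaks, where 11.7% to 16.1% of placements would overlap a PRE. For IGF2BP2 they were 6.25% to 17.6% against 12.3% to 14.5%, and for DDX3 0% to 9.09% against 10.1% to 12.5%.

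The level of PUM2 was higher than that of the other RBPs at 6 of the 15 PREs in K562 cells, or 40%, and at 0 of 15, or 0%, in HEK293T cells, where none passed before adjustment either. The level is the reads of peaks over the element per 10000 peak reads of the library, tested by exact permutation with a Benjamini-Hochberg adjustment over the 15 PREs. It depends on library size. A PUM2 peak of 3 reads, the fewest seen, is 0.0295%, 0.0199% and 0.0233% of the peak reads in K562 replicates 1 to 3. At PRE9 in replicate 1 such a peak gave 2.95 per 10000, above the 1.03 of 76 FAM120A reads. The highest other level at any PRE in K562 cells was 1.37, so any PUM2 peak there ranked first in its pool. The test thus reflects in how many replicates PUM2 had a peak. The 6 PREs lay in 4 sites, since neighbouring PREs share peaks, and the count fell to 0 without K562 replicate 2 or without replicate 3. There PRE9 and PRE10 still reached p = 0.01, the smallest that 100 choices allow by exact permutation, but at least 3 PREs at that p are needed to pass the adjustment (adjusted p = 0.075). At PRE9, the strongest, PUM2 had 2.95, 13.9 and 14.0 reads per 10000 in K562 replicates 1 to 3, and the highest other RBP had 1.03, 0.770 and 0.517 (exact permutation p = 0.001, adjusted p = 0.0075). PUM2 was higher than every other library of its pool in all 3 replicates.

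PRE10 next to it had 2.95, 9.95 and 14.0, against the same values of the other RBPs (exact permutation p = 0.001, adjusted p = 0.0075). At the remaining called PREs K562 replicate 1 had no PUM2 peak. PRE4 and PRE5 had 7.96 and 6.22 reads per 10000 in replicates 2 and 3, PRE11 had 9.95 and 6.22, and PRE13 had 12.6 and 6.998, where the highest other RBP of any replicate was FAM120A at PRE13 with 1.37 (exact permutation, each p = 0.01, adjusted p = 0.025). In replicate 1 other RBPs had peaks at PRE4, PRE5 and PRE11. PRE12 and PRE15 had a PUM2 peak in 1 K562 replicate each. In HEK293T cells PUM2 peaks covered PRE4, PRE5, PRE9, PRE10, PRE12 and PRE13 in replicate 2, at 0.994 to 3.97 reads per 10000, and no PRE in replicate 1. At PRE9 and PRE10 no other 10plex HEK293T library had a peak, and singleplex RBFOX2 of replicate 1 had 1 peak of 4 reads there.

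**Figure D4:**
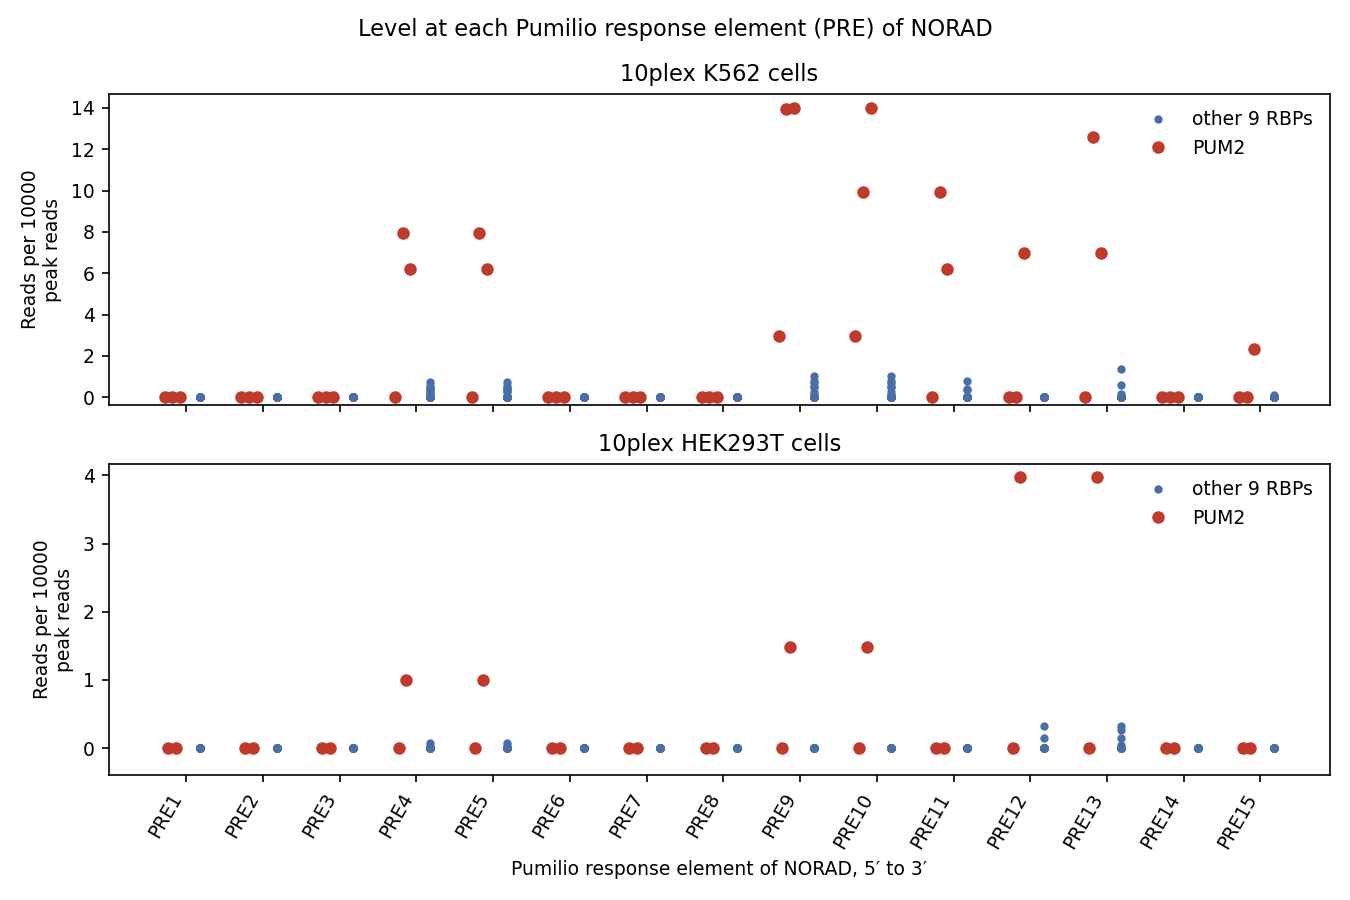
Level at each of the 15 PREs of NORAD, in reads of overlapping merged peaks per 10000 peak reads of the library, in K562 (top) and HEK293T cells (bottom). Red points are the PUM2 replicates and blue points the libraries of the other 9 RBPs; at PRE9 all 3 K562 replicates of PUM2 lie above the others.

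Away from PREs PUM2 had 25 peaks, and some recurred in every library. Of the 13 sites, 3 were present in all 5 PUM2 libraries. These were nt 912 to 1010, nt 2162 to 2339 and nt 3340 to 3488. The first begins 86 nt after PRE1 and the second 58 nt after PRE7, and neither holds a PRE. The third holds PRE12 and PRE13, although the peak starts on the 3′ side of PRE13 in K562 replicate 1 and HEK293T replicate 1 and covers PRE13 alone in K562 replicate 2. Both sites without a PRE hold the shorter core TGTANA, which is shown here in capitals.
First core element, nt 952 to 957, chr20:36050054-36050075: acacatctTGTAAAttctcatt
Second core element, nt 2204 to 2209, chr20:36048802-36048823: gcatatttTGTACActttgtgt

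PUM2 had peaks over both core elements in all 3 K562 and both HEK293T libraries. Other RBPs were there too, with a peak on the first of these sites in 32 of the other 45 10plex libraries, every one of FAM120A, IGF2BP2, LIN28B and PRPF8 included, and on the second in 18. NORAD holds 27 matches to TGTANA, PREs included. Matches outside PREs without a PUM2 peak in any library began at nt 1615, 1777, 1859, 2813, 2832, 3625, 3712 and 5221. The match at nt 2813 reads TGTACA, as the second core element does, so these 6 bases alone do not separate covered from uncovered matches. In K562 cells 17 of 24 PUM2 peaks, or 70.8%, overlapped one, where 23.7% of placements would, and in HEK293T cells 7 of 15, or 46.7%, where 25.3% would. The next highest shares were 31.6% in PRPF8 in K562 cells, 6 of 19 peaks, and 33.3% in EIF3G in HEK293T cells, 2 of 6 peaks. With TGTANA in place of TGTANATA the share of NORAD peak reads of PUM2 at an element was 81.8% in K562 cells against 17.6% in the others (exact permutation, p = 0.001) and 50.2% against 15.7% in HEK293T cells (p = 0.01, exact permutation). Of the 24 K562 peaks of PUM2, 22 were within 150 nt of a PRE, and the 13 that did not overlap one lay 9 to 627 nt away, with a median of 79 nt. The same median was 81 nt in IGF2BP2, 89 nt in FAM120A and 96 nt in LIN28B. Of the 13 peaks, 10 lay on the 3′ side of their nearest PRE and 3 on its 5′ side, beside 24 and 13 in FAM120A and 26 and 14 in IGF2BP2, where 48.2% of the bases of NORAD are nearest to the 3′ side of a PRE. In HEK293T cells the 12 PUM2 peaks without a PRE had a median of 109.5 nt, against 84.5 nt in LIN28B, and 8 lay on the 3′ and 4 on the 5′ side. These are values of peaks, with no test.

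PUM2 peaks on NORAD were enriched in larger part than those of the other RBPs on average, as measured over the complement control (CC), which adds up the reads that the 9 remaining barcodes of a pool had at the same place. Enriched means P below 0.001 and a fold above 8. In K562 cells 2 of 4, 9 of 11 and 6 of 9 peaks were enriched, 17 of 24 in all, against 31.2% of all PUM2 peaks with a CC value. In HEK293T cells 5 of 7 and 6 of 8 were, 11 of 15 in all, against 22.5%. The mean share of 66.2% ± 15.9 in K562 cells (SD, n = 3) was above the 12.5% of the other RBPs (exact permutation, p = 0.007, adjusted p = 0.014), and the 73.2% ± 2.53 in HEK293T cells (SD, n = 2) above 11.1% (exact permutation, p = 0.02, adjusted p = 0.024). Over all their peaks, single libraries of the other RBPs had 6.02% to 43.9% enriched in K562 and 3.22% to 35.6% in HEK293T cells. The fold is set against a library's share of its pool, 0.865% to 1.03% for PUM2, and the contrast between RBPs was not adjusted for that. DDX3 came closest, with 5 of 7 peaks, or 71.4%, in both HEK293T replicates, equal to PUM2 of replicate 1. In K562 replicate 1 DDX3 with 66.7%, LIN28B with 60% and FAM120A with 58.3% were above the 50.0% of PUM2. With P below 1e-05 and a fold above 16, the means of PUM2 fell to 17.8% in K562 and 33.0% in HEK293T cells, against 3.92% and 4.76% in the others (exact permutation, p = 0.05 and 0.04). Without K562 replicate 2 the value at the first limits was 58.3% and did not pass (exact permutation, p = 0.07). Against the external background of the deposited peaks, which is not named for each library, every PUM2 peak in K562 cells was enriched, but so were 78.4% of the others' (p = 0.09, exact permutation).

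The fold over the CC was higher at PREs than between them by its median, as a description, since peaks of 1 library are no replicates. At PREs 13 of 14 PUM2 peaks were enriched, with folds of 7.69 to 23.9 and a median of 15.3, and between PREs 15 of 25 were, with folds of 0.708 to 22.8 and a median of 9.11. The highest fold was at PRE11, with 21.0 and 23.9 in K562 replicates 2 and 3. The peaks between nt 102 and 206 had folds of 2.53 to 4.81 and were not enriched in any library. At nt 4180 to 4227 PUM2 of K562 replicate 2 had 7 reads against 1092 in the CC, a fold of 0.708.

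**Figure D5:**
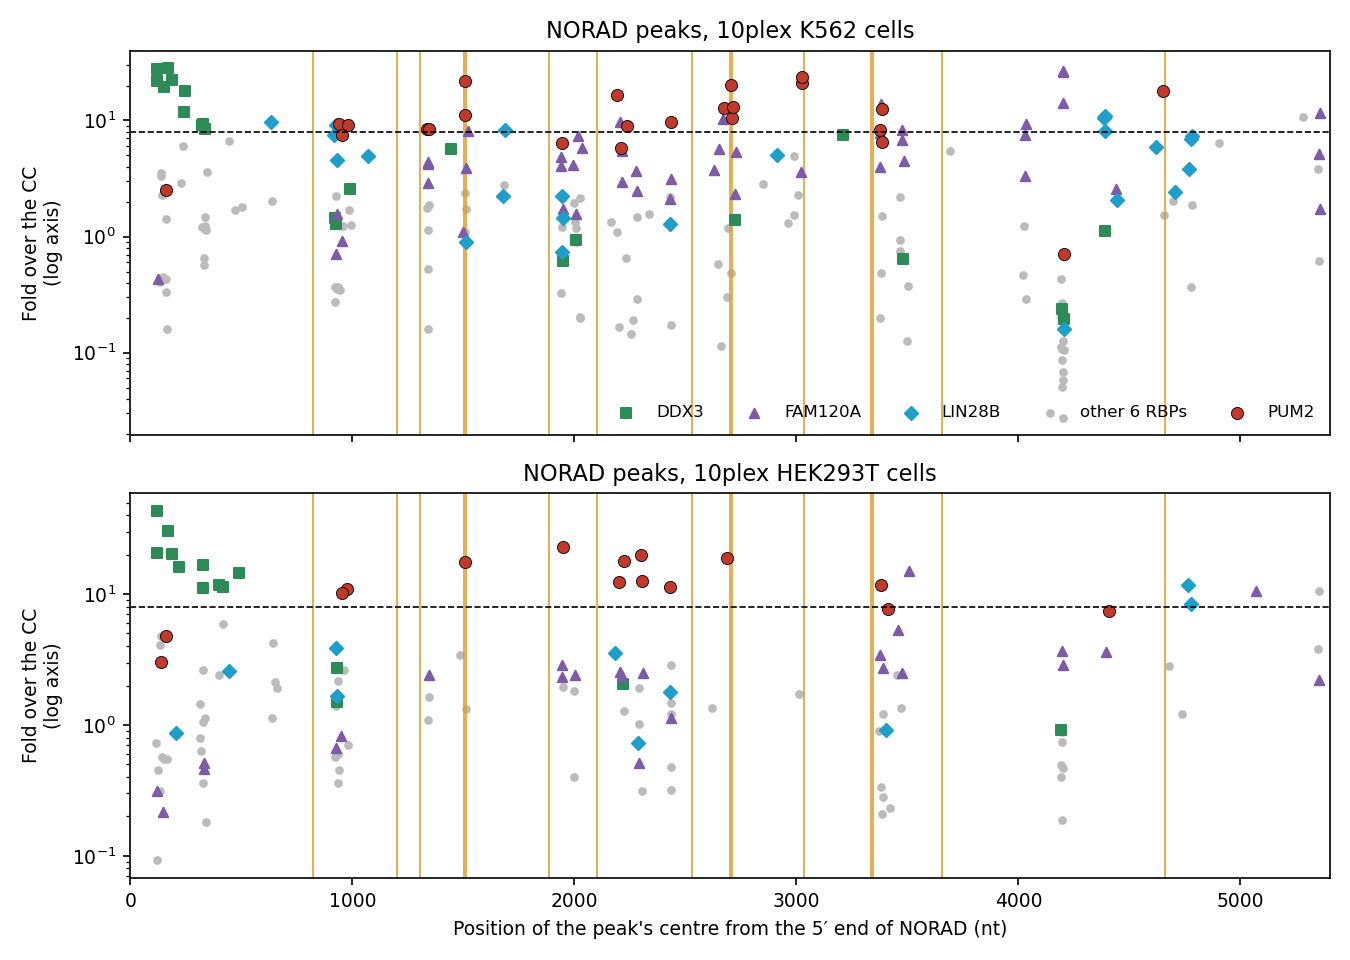
Fold over the CC of each NORAD peak, on a log axis, by the position of its centre from the 5′ end in nt. The dashed line marks a fold of 8 and vertical lines mark PREs; DDX3 peaks above the line lie within nt 95 to 502, PUM2 peaks above it lie between nt 912 and 3431 except for 1 K562 peak at PRE15, and FAM120A reaches 26.9 between nt 4161 and 4236.

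Of 317 peaks of the other 9 RBPs with a CC value, 41 were enriched, 20 of DDX3, 11 of FAM120A, 8 of LIN28B and 2 of IGF2BP2. In K562 and HEK293T cells these were 10 of 22 and 10 of 14 for DDX3, 10 of 46 and 1 of 25 for FAM120A, and 6 of 23 and 2 of 10 for LIN28B. Over all peaks of a library the enriched share was 10.4% to 28.0% in DDX3, 16.4% to 20.4% in FAM120A, 22.2% to 43.9% in LIN28B and 3.22% to 19.1% in IGF2BP2. Only DDX3 was thus above its own range in both lines, with the peaks of a line pooled. In K562 replicate 2 alone DDX3 was not, with 3 of 11 NORAD peaks, or 27.3%, against 27.4% of all its peaks. All 20 of DDX3 lay between nt 95 and 502, before PRE1, where this helicase had 63.5% to 91.5% of its NORAD peak reads in K562 and 88.5% to 90.4% in HEK293T cells. EIF3G, which also acts in initiation, had 54.5% to 100% and 81.8% to 87.8% there, with no enriched peak. These EIF3G shares rest on only 7 to 22 NORAD reads per library in K562 and on 22 and 41 in HEK293T cells. The highest FAM120A fold was at nt 4161 to 4236, where it was enriched in all 3 K562 replicates with folds of 25.9, 26.9 and 14.2. LIN28B was enriched in all 3 K562 replicates between nt 4355 and 4420, with folds of 8.13 to 10.9, and in replicate 1 also at nt 894 to 959, with a fold of 9.05, on the first PUM2 site found in all 5 libraries. DDX3, FAM120A and LIN28B were each enriched in all 3 K562 replicates only at these places, all of them outside the stretch from PRE1 to PRE14.

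Most PUM2 places on NORAD were also covered by peaks of FAM120A and IGF2BP2. In K562 cells 21 of 24 PUM2 peaks, or 87.5%, overlapped a FAM120A peak of the same replicate, and 22 of 46 FAM120A peaks, or 47.8%, a PUM2 peak. For IGF2BP2 these were 79.2% of the PUM2 and 42.2% of the IGF2BP2 peaks, for DDX3 29.2% and 31.8%, and for EIF3G 8.33% and 28.6%. In HEK293T cells 12 of 15 PUM2 peaks overlapped a FAM120A peak and 11 of 15 an IGF2BP2 peak. FAM120A and IGF2BP2 also had the most NORAD peaks, 46 and 45 in K562 cells. The same overlap over all PUM2 peaks was not computed. In K562 replicate 1 FAM120A was itself enriched over the CC at PRE4 and PRE5, at nt 2168 to 2246, at PRE9 and PRE10 and at nt 3351 to 3412, with folds of 8.09, 9.66, 10.3 and 13.9.

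Both singleplex sets gave little on NORAD. RBFOX2 had 12 and 8 merged peaks in HEK293T cells, with 0.00257% and 0.00327% of its peak reads. SLBP, which binds the stem-loop of histone mRNAs, had 0 reads in NORAD peaks in either K562 replicate, where 3 reads, the limit set for a count of 0, would be 0.00591% and 0.0254%, and the Wilson 95% intervals reach 0.00756% and 0.0325%.

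NORAD had an enriched PUM2 peak in all 5 libraries, and how many of all genes did so was not computed. Other genes of the Pumilio pathway are given beside the 18765 genes with an exonic peak of any RBP in a 10plex library. Of 10 pathway genes (PUM2, CDKN1B, E2F3, ATXN1, CCNB1, MAD2L1, PCNA, CKS2, UBE2A and SDAD1), 5 had an exonic PUM2 peak that was enriched in at least 1 library, beside 5.15% of all genes. A peak in every K562 replicate was found in 0 of the 10, beside 2.05% of all genes. In both HEK293T libraries 2 of the 10 had a peak and 0 had an enriched one, beside 3.73% and 0.256%. With 10 genes and no adjustment for length or level, these counts are a description. Of the NORAD-binding proteins KHDRBS1 and RBMX, the mRNA of RBMX had a PUM2 peak in all 5 libraries, and none was enriched.

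The genes whose share of peak reads followed that of NORAD most closely over the 50 10plex libraries were RAB7A, a GTPase of late endosomes (Pearson r = 0.74), ARF1, a GTPase of the Golgi (r = 0.71), DDX6, a helicase of mRNA decay (r = 0.67), TUBB, a beta-tubulin (r = 0.65), and SLC38A2, an amino acid transporter (r = 0.63). They were drawn from 282 genes with a PUM2 peak in all 5 PUM2 libraries, over which the median r was 0.37, on log2 shares with 0.5 reads added. The libraries share depth and pools, so these values are a description. In SLC38A2 the share was 0.334% ± 0.230 in PUM2 of K562 cells (SD, n = 3) against 0.0543% in the other RBPs, and in TUBB, by contrast, 0.0856% ± 0.00715 against 0.103%.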

How the data were processed

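Per the labels and the study's methods, the authors trimmed reads (cutadapt 2.8), split them by barcode, set repeat reads aside, aligned to GRCh38 (STAR 2.7.6), removed duplicates by molecular identifier and called peaks per library with CLIPper, without pooling replicates. The deposited files hold no read counts per gene. They give for each peak the CLIPper p-value (with a display score in some of the deposited files), and for merged peaks the −log10 P and log2 fold over an external background; deposited CC files add a chi-squared or Fisher P and chi-squared value. Peak reads were recovered from the deposited log2 and −log10 values, and equalled those in the PUM2 peak names for 96.8% and 99.2% of peaks where names hold them (K562 replicates 1 and 3). Recovered reads may be too high where the fold over the external background is near 1, as in the HEK293T IGF2BP2 and RBFOX2 peaks named above. CC reads and the direction of the CC test, which the chi-squared value does not carry, were recovered likewise. The check used K562 replicate 3, whose CC files hold the fold, with a chi-squared value computed from the CC reads and pool share that the fold gives. Among peaks with P below 0.001, the enriched call was equal for 100% of PUM2 peaks and at least 99.966% in every library. The remaining pools rest on deposited chi-squared values and a fitted pool share, which this check does not cover. In the other pools recovered CC reads came within 0.05 reads of a whole number, beyond the rounding of the deposited chi-squared value, for 83.1% to 88.2% of PUM2 peaks, and the rest were rounded to the nearest.

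NORAD coordinates come from GENCODE 44 (the authors used 35). RBP labels were permuted exactly within replicates, since the RBPs of a replicate share 1 pool, and p-values were Benjamini-Hochberg adjusted over 6 tests or 15 PREs. On simulated libraries with the spread of the NORAD share, the K562 test passed in 5.6% with no difference and in 99.4% with a 4-fold one, over 500 draws. The simulated spread had an SD of 0.666 in log2. Mean shares of the other RBPs in K562 cells ran more widely, from 0.00607% for PRPF8 to 0.119% for FAM120A. Neither rate therefore describes the test on RBPs with such lasting differences. The 5.6% holds for RBPs without any difference and is no rate over real genes. Of 384 genes with an exonic PUM2 peak in every K562 replicate, 25.5% had their highest share in PUM2 in every replicate. Alternatives were the read counting, peak list, PRE window, motif, limits, block, RBPs compared and each replicate left out. Genes correlated with NORAD were the 5 with the highest r, and pathway genes were to be given values only with an enriched PUM2 peak in every K562 replicate. A gene of the pathway list is not reported here and was left out of its counts. The members, lists and tests were chosen with earlier results of these data known. Intervals cover counting error only. Python 3.11.15, numpy 2.4.6, pandas 2.3.3 and scipy 1.17.1 were used.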

Additional observations from a re-analysis of the deposited data

How the results depend on the processing

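PUM2 reads at PREs in HEK293T cells depended most on the setting. Their share passed with the PRE extended by 20 nt (29.9%, exact permutation p = 0.01) and with TGTANA (50.2%, exact permutation p = 0.01). It did not pass with the PRE extended by 50 nt (33.6%, exact permutation p = 0.07). The share was 0% without replicate 2, which reverses the direction, and 38.8% without replicate 1. Leaving out 1 K562 replicate gave 58.3% to 74.2% for peaks enriched over the CC, with p = 0.07 by exact permutation without replicate 2, and 0 to 6 for PREs with a higher PUM2 level, with 0 without replicate 2 or 3, where fewer than 3 PREs at the smallest p of 0.01 (exact permutation) cannot pass. Over the external background the enriched share in K562 cells was 100% against 78.4% (exact permutation p = 0.09). Without RBFOX2, SF3B4 and PRPF8, where fewer labels can be exchanged, 2 PREs passed. Leaving out 1 HEK293T replicate gave shares of peak reads of 0.166% to 0.226% and enriched shares of 71.4% to 75.0%, where 10 choices allow no p below 0.1. Without the replicate block the p-values of the share of peak reads were 0.000493 in K562 and 0.00526 in HEK293T cells by exact permutation, with 6 and 0 PREs passing, and no call changed. Against the pool's reads the difference between lines was -0.18. With P below 1e-05 and a fold above 16 the enriched shares fell to 17.8% and 33.0%. In the other alternatives run, direction and side of the threshold were kept. The alternative with unmerged CLIPper peaks was not run for the HEK293T share and PRE levels, nor for K562 replicate 2, where dropped peaks have no reads. The 16 to 134 NORAD reads of a PUM2 library limit all of these.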
